A study of Mus musculus with 4 samples.

Results

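The Sox, forkhead and T-box families of transcription factors were examined in mouse molar tooth germs exposed to dioxin in organ culture. Members were the array probe sets with a single gene symbol that begins with Sox, Fox or Tbx followed by the family's letter or number code. This gave 43 of the 8252 genes with a single symbol on the array, and 62 of its 12488 probe sets: 22 probe sets of 13 Sox genes, 32 of 26 forkhead genes and 8 of 4 T-box genes. The exposed tooth germs had 1 µM TCDD (2,3,7,8-tetrachlorodibenzo-p-dioxin) in the medium for 24 h. The control germs had the solvent DMSO at 0.65%. Both groups were mandibular molar regions of NMRI embryos at embryonic day 14, and each group had 2 arrays, each made from a pool of about 60 explants of 3 experiments. DMSO replicate 2 is the only sample whose label lists ascorbic acid in the medium, and the RNA input was 11 µg for both replicates 1, 8 µg for TCDD replicate 2 and 7 µg for DMSO replicate 2.

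SOX proteins bind DNA through an HMG box and bend it, forkhead proteins bind through a winged-helix domain, and T-box proteins bind through the domain that gives them their name. In the face, the families mark lineages: SoxE factors and Foxd3 belong to neural crest and its glia, Sox2 to oral and dental epithelium, SoxF factors to endothelium, and several forkhead factors to arch mesenchyme under hedgehog control. TCDD binds the aryl hydrocarbon receptor, which pairs with Arnt on DNA at the core letters GCGTG.

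Values are MAS5 hybridisation signals on a linear scale, with each array scaled by the authors to a target of 100. Signals of different probe sets cannot be set against each other, since each has its own probes. The groups were compared with limma on log2(signal + 16), using the 5783 probe sets whose signal averaged 50 or more over the 4 arrays, with p-values adjusted over all of them. All differences are TCDD minus DMSO on that log2 scale, which understates differences of dim probe sets. With 2 arrays against 2, an exact permutation test of a single probe set could not give a two-sided p below 0.333, so none was run. Part of the deposited values had been stored as serial numbers of calendar days and were rebuilt as day.month, which touched 1 of the 21 members with a mean signal of at least 50 and most of the dimmer ones. The labels do not say whether the pools shared litters. Standard errors, intervals and p-values rest on the spread between these pools. In limma each probe set's spread is drawn toward that of all probe sets of like signal. A small difference between 2 pools therefore does not by itself give a small standard error.

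The exposure was visible in the receptor's own targets. Cyp1a1, a xenobiotic-metabolising cytochrome P450 gene, had signals of 194.8 and 210.5 in TCDD germs, against 14.7 and 12.7 in DMSO germs. Both DMSO signals of Cyp1a1 were rebuilt from serial numbers of calendar days. The log2 change was 2.88 ± 0.22 (SE, n = 2 each), with a limma adjusted p of 3.68e-04. Of the 5 receptor targets checked, 4 reached the mean of 50, all 4 were higher and 2 passed the test. Cyp1a1 and Nqo1 reached that mean only through their TCDD arrays, with DMSO means of 13.7 and 34.5. The count of 4 higher is therefore partly set by the filter. These targets and the genes of the other lists were each read only at their probe set of highest mean signal. Of the genes on the array, 8 of 10 for dental epithelium and enamel knot reached a mean of 50. So did 12 of 13 for dental and first arch mesenchyme. None of the 9 lymphocyte genes and none of the 7 lung, liver and gut genes did. Of other cell types, 7 of 10 macrophage genes and 4 of 10 skeletal muscle genes did, so reaching it is not particular to dental tissue. The explants are bulk tissue, so fewer cells of a type and less RNA per cell cannot be told apart in any value given here.

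Of the 62 member probe sets, 21 reached a mean signal of 50, for 16 genes: 11 Sox, 8 forkhead and 2 T-box probe sets. None of the 21 passed the adjusted p of 0.05 in limma, where 0.0692% of all probe sets tested did (0.0346% higher and 0.0346% lower in TCDD germs). At an unadjusted p under 0.05 the count was also 0 of 21, beside 2.59% of all. The limma adjusted p of each was 0.997. The filter took the mean over all 4 arrays. Sox17 (92996_at, 41.6), Foxl1 (48.1) and Foxf1 (48.7) lay just under it, and Sox10 (102856_at, 52.9), Foxf2 (58.9) and Sox3 (103302_r_at, 67.1) just over it.

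Among these 21 probe sets, 8 were higher and 13 lower in TCDD germs, where 48.9% of all probe sets tested were lower. Their median log2 difference was -0.09, beside 0.01 for all probe sets tested. The members' median was -0.02 without TCDD replicate 1 or DMSO replicate 1 and -0.21 without DMSO replicate 2. The 21 differences ranged between -0.42 for Sox3 and 0.28 for Foxp1. The 2 groups' arrays did not overlap in 7 of the 21 (33.3%), 3 with TCDD above and 4 with TCDD below, while 29.8% of all probe sets tested had no overlap (15.3% with TCDD above and 14.6% below). The share is near that background. Each 95% interval stands for 1 probe set, with no allowance for their number. The lowest bound of the 21 was -1.17, for Foxf2, and the highest 0.81, for Sox2. Intervals of the members under the filter, from a fit without it, reached -1.45 and 1.54. All 21 intervals lay below the lowest bounds of Cyp1a1 (2.39) and Cyp1b1 (1.82).

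**Figure D1:**
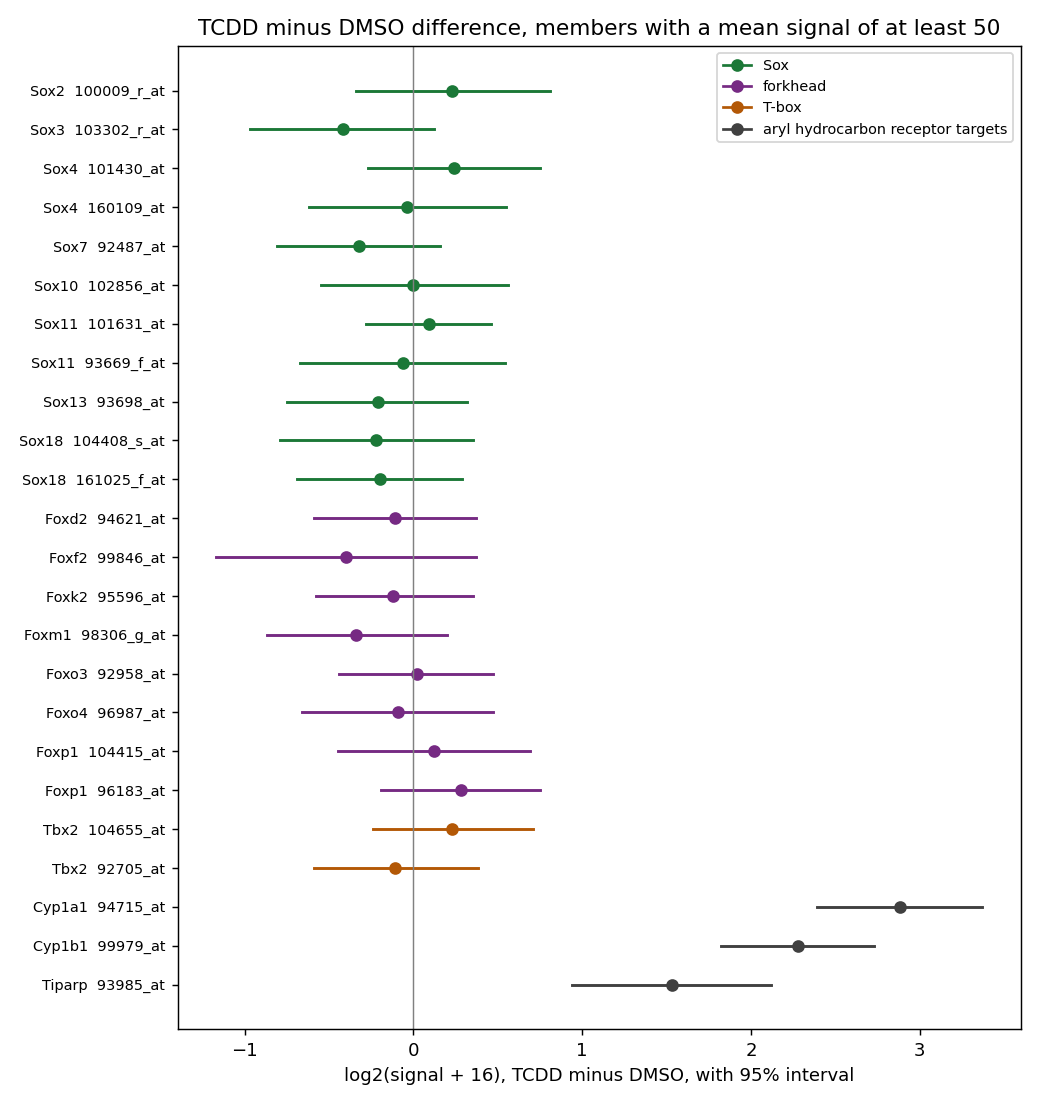
TCDD minus DMSO difference in log2(signal + 16) for the 21 members averaging 50 or more and for 3 receptor targets. Points are limma estimates from 2 arrays per group and lines their 95% intervals. Every member interval crosses 0, between -1.17 and 0.81, while Cyp1a1 lies at 2.88 and Cyp1b1 at 2.28.

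The SoxC genes Sox4 and Sox11, which act in embryonic progenitors and in mesenchyme, were measured by 2 probe sets each. Sox11 at 101631_at had signals of 854.7 and 834.9 in TCDD germs, against 774.3 and 813.1 in DMSO germs. Both TCDD arrays were above both DMSO arrays, but by a log2 difference of only 0.09 ± 0.17 (SE), with an interval between -0.28 and 0.46. This was the narrowest interval of the 21. The other Sox11 probe set, 93669_f_at, had 304.1 and 166.2 in TCDD germs and 276.7 and 201.6 in DMSO germs, a log2 difference of -0.06 ± 0.28 (SE). Here replicate 1 was high in each group and the groups overlapped.

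Sox4 at 160109_at had signals of 457.8 and 773.5 in TCDD germs, against 499.9 and 746.3 in DMSO germs. At 101430_at it had 483.6 and 680.8 in TCDD germs and 402.5 and 579.0 in DMSO germs. Replicate 2 was above replicate 1 in each group at both probe sets. The log2 difference by TCDD was -0.04 ± 0.26 at 160109_at and 0.24 ± 0.23 (SE) at 101430_at. Between replicate 1 and replicate 2 the log2 difference was -0.74 in TCDD and -0.56 in DMSO at 160109_at, and -0.48 and -0.51 at 101430_at.

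Of the SoxB genes, which keep progenitor cells of neural and epithelial tissues undifferentiated, Sox2 was measured only at 100009_r_at. Sox2 had signals of 575.4 and 329.0 in TCDD germs, against 425.6 and 318.7 in DMSO germs. Its log2 difference was 0.23 ± 0.26 (SE), and TCDD replicate 1 was the high array. Without that array the Sox2 difference was -0.16. Sox3 at 103302_r_at had 62.7 and 47.0 in TCDD germs and 92.7 and 66.0 in DMSO germs. Both TCDD arrays were below both DMSO arrays, with a log2 difference of -0.42 ± 0.25 (SE) and an interval between -0.97 and 0.12. The Sox3 difference was -0.22 without DMSO replicate 1 and -0.63 without DMSO replicate 2. The 3 other Sox3 probe sets stayed under a mean of 50, and 1 of them, 161276_i_at, was higher in TCDD germs by 0.09 and the others lower by 0.17 and 0.39.

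SoxF genes act in blood vessel endothelium. Sox7 had signals of 77.9 and 79.7 in TCDD germs, against 116.9 and 90.0 in DMSO germs, a log2 difference of -0.32 ± 0.22 (SE). The groups did not overlap, and DMSO replicate 1 was the high array. Without it the Sox7 difference was -0.16, and without DMSO replicate 2 it was -0.49. Sox18 at 161025_f_at had 69.3 and 90.2 in TCDD germs and 94.3 and 91.9 in DMSO germs, a log2 difference of -0.20 ± 0.22 (SE). At 104408_s_at, where the groups overlapped, Sox18 differed by -0.22 ± 0.26 (SE). Without TCDD replicate 1, the low array at both Sox18 probe sets, the differences were -0.04 at 161025_f_at and 0.09 at 104408_s_at.

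These 3 SoxF probe sets were lower in TCDD germs without passing the test. Sox17, the other SoxF gene, was higher by 0.40 ± 0.37 (SE) at 92996_at, just under the filter, and differed by -0.04 at its other probe set. Without DMSO replicate 1 the difference at 92996_at was -0.03. Among other endothelial genes, 2 of the 5 past the filter were higher and 3 lower, with a median log2 difference of -0.16 and 0 passing in limma. The summed signal of the 9 such genes on the array was 688.0 and 672.6 in TCDD germs and 739.4 and 689.4 in DMSO germs. Pecam1, an endothelial adhesion gene, had 42.5 and 43.3 in TCDD germs and 107.0 and 49.8 in DMSO germs, so DMSO replicate 1 was high there too. Emcn, which encodes endomucin, had 131.6 and 132.2 in TCDD germs and 95.8 and 104.2 in DMSO germs. The part of endothelial content in the Sox7 and Sox18 values was not tested.

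Sox13, a SoxD gene, had signals of 111.4 and 132.3 in TCDD germs, against 179.3 and 114.2 in DMSO germs, with DMSO replicate 1 high and a log2 difference of -0.21 ± 0.24 (SE). Without DMSO replicate 1 the Sox13 difference was 0.08. Sox5 and Sox6, the SoxD partners of Sox9 in cartilage, stayed under a mean of 50 at all 3 probe sets. Sox9 itself is not among the 13 member Sox genes, so no value of it is given here. Cartilage matrix genes had 2 of 8 past the filter, both within 0.07 of 0 on the log2 scale. Sox10, the SoxE factor of neural crest and glia, had 52.2 and 52.8 in TCDD germs and 64.7 and 41.9 in DMSO germs at 102856_at. The groups overlapped and the log2 difference was 0.00 ± 0.25 (SE). The neural crest and glia genes past the filter were Erbb3 and Mbp, higher by 0.35 ± 0.22 and 0.16 ± 0.22 (SE) without passing the test.

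**Figure D2:**
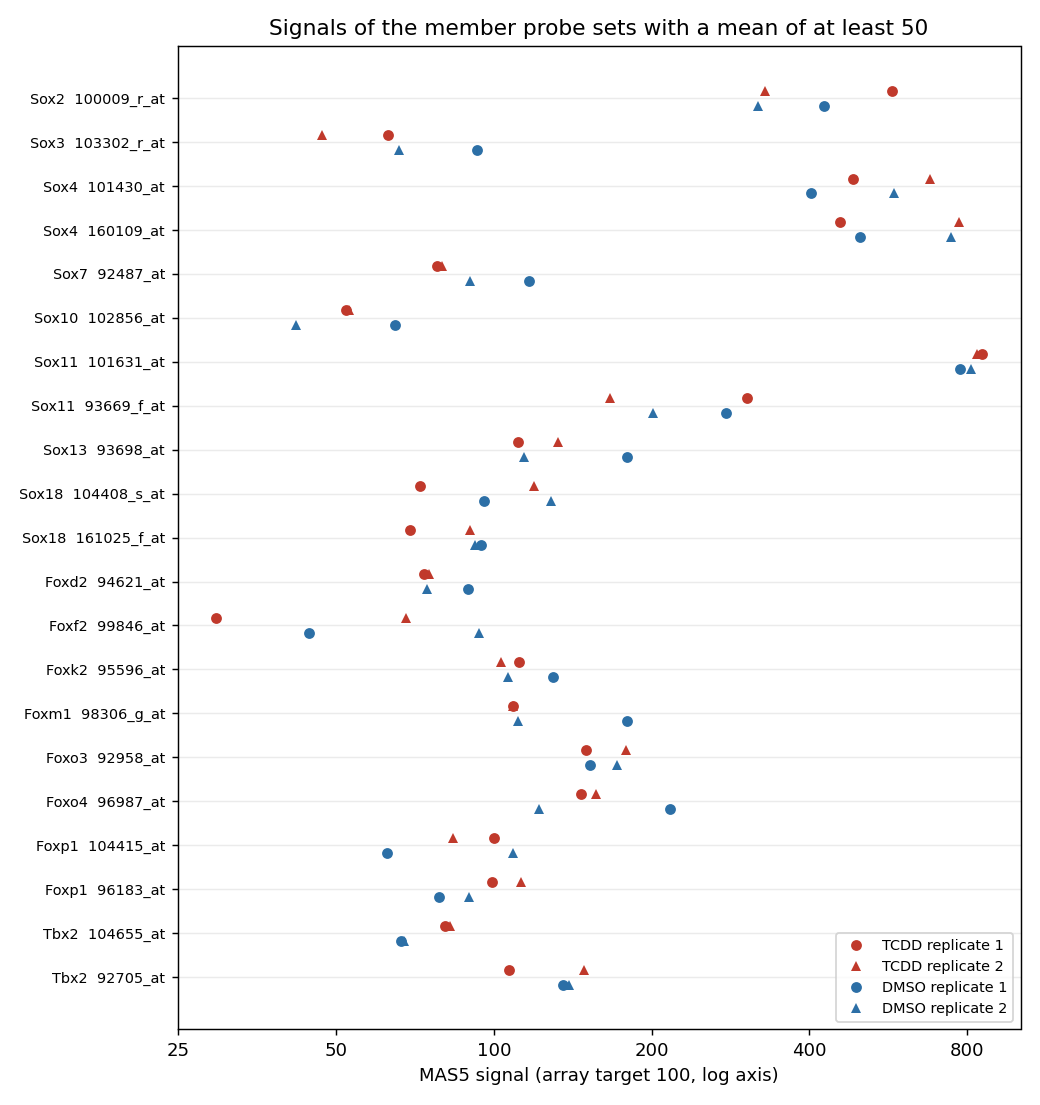
MAS5 signals on a log axis for the 21 member probe sets with a mean of at least 50, with 1 point per array and the TCDD arrays drawn above the DMSO arrays. The groups' points overlap in all probe sets but 7, and in Sox4, Foxf2 and Sox2 the replicate numbers lie farther apart than the groups.

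Among the forkhead genes, Foxp1, a repressor with roles in many embryonic tissues, was the only one past the filter with 2 probe sets there. At 96183_at it had signals of 99.0 and 112.8 in TCDD germs, against 78.6 and 89.8 in DMSO germs. Both TCDD arrays were above both DMSO arrays, with a log2 difference of 0.28 ± 0.21 (SE) and an interval between -0.19 and 0.75. At 104415_at Foxp1 had 99.9 and 83.4 in TCDD germs and 62.4 and 108.7 in DMSO germs, with overlap and a log2 difference of 0.12 ± 0.26 (SE).

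Foxm1 drives genes of mitosis. At 98306_g_at it had signals of 109.0 and 109.0 in TCDD germs, against 179.7 and 111.3 in DMSO germs, a log2 difference of -0.34 ± 0.24 (SE). DMSO replicate 1 alone stood high, and without it the difference at 98306_g_at was -0.03. The other Foxm1 probe set, 98305_at, lay under the filter and pointed the other way, with 37.7 and 40.9 in TCDD germs and 8.4 and 28.2 in DMSO germs. Its log2 difference was 0.75 ± 0.34 (SE), and 0.32 without DMSO replicate 1. Of 8 mitotic genes past the filter, 2 were higher and 6 lower, with a median log2 difference of -0.07 and 0 passing in limma. Top2a, a topoisomerase gene, differed by 0.27 ± 0.21, Ccnb2, a mitotic cyclin gene, by -0.18 ± 0.18 and Cdc20, an activator of the anaphase-promoting complex, by -0.15 ± 0.19 (SE).

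The Foxo genes, which act under insulin signalling in arrest and stress resistance, showed no shift past the test. Foxo3 had signals of 150.0 and 178.7 in TCDD germs, against 152.6 and 171.6 in DMSO germs, a log2 difference of 0.02 ± 0.21 (SE). Foxo4 had 146.9 and 156.8 in TCDD germs and 216.5 and 122.0 in DMSO germs, a difference of -0.09 ± 0.26 (SE), with the DMSO arrays at either end. Of 7 arrest, stress and metabolic genes linked to Foxo factors, 4 were higher and 3 lower, with a median of 0.02 and 0 passing in limma. Txnip, which encodes a thioredoxin-binding protein, differed by 0.31 ± 0.21 and Cat, the catalase gene, by -0.29 ± 0.25 (SE).

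Foxf2, a mesenchymal factor needed for palate growth in mice, had signals of 29.5 and 68.1 in TCDD germs, against 44.4 and 93.7 in DMSO germs. Replicate 2 was above replicate 1 in each group, and each TCDD array was below the DMSO array of the same number. The log2 difference was -0.40 ± 0.35 (SE), and the TCDD replicate 1 signal of Foxf2 was among the values rebuilt from a day serial. Its relative Foxf1 lay under the filter, with 26.3 and 50.1 in TCDD germs and 58.7 and 59.6 in DMSO germs. Both TCDD arrays were below both DMSO arrays, and the Foxf1 difference was -0.51 ± 0.30 (SE). TCDD replicate 1 was the low array for both genes. Without it the differences were 0.05 for Foxf2 and -0.19 for Foxf1.

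Hedgehog pathway genes, which lie upstream of Foxf factors in the embryo, had 4 of 5 measured genes higher and 1 lower, with a median of 0.08 and 0 passing in limma. Gli1, a target and effector of the pathway, differed by 0.24 ± 0.23 and Gli2, another effector, by 0.26 ± 0.27 (SE). Ptch1, the hedgehog receptor and also a target, had 836.2 and 773.0 in TCDD germs and 616.6 and 932.5 in DMSO germs. The groups overlapped in each of Gli1, Gli2 and Ptch1.

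The 2 remaining forkhead probe sets past the filter, of Foxd2 and Foxk2, differed by -0.11 ± 0.22 and -0.12 ± 0.21 (SE). Foxd2 is a factor of cranial and kidney mesenchyme, and had 73.5 and 75.3 in TCDD germs against 89.4 and 74.4 in DMSO germs. Foxk2, a broadly expressed factor (95596_at), had 111.7 and 103.2 in TCDD germs against 129.9 and 106.5 in DMSO germs. In both genes DMSO replicate 1 was the highest of the 4 arrays.

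Tbx2, a T-box repressor, was the only T-box gene past the filter. At 104655_at it had signals of 80.6 and 82.6 in TCDD germs, against 66.4 and 67.5 in DMSO germs. The arrays of each group lay close together and the groups did not overlap, with a log2 difference of 0.23 ± 0.22 (SE). At 92705_at Tbx2 had 106.9 and 148.4 in TCDD germs and 135.6 and 138.8 in DMSO germs, with overlap and a difference of -0.11 ± 0.22 (SE). The third Tbx2 probe set had a mean under 10 in each group.

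Differences between the replicate numbers were as frequent among the members as among all probe sets. In 9 of the 21 probe sets (42.9%), both arrays of one replicate number lay above both arrays of the other, beside 44.4% of all probe sets tested. Replicate 1 was higher in 3 of them, which belong to Sox2, Sox11 and Foxk2, and replicate 2 in 6, which belong to Sox4, Sox18, Foxf2, Foxo3 and Tbx2. The mean difference between the replicate numbers was larger than that between the groups in 12 of the 21 members and in 56.5% of all probe sets, so both shares are near the background. Leaving out 1 array turned the sign of the difference in 13 of the 21. Without DMSO replicate 1 these were 7: Foxk2, Foxo3, Foxo4, Foxp1 (104415_at), Sox11 (93669_f_at), Sox13 and Sox4 (101430_at). Without TCDD replicate 1 they were 5: Foxf2, Sox2, Sox18 (104408_s_at), Sox4 (160109_at) and Tbx2 (92705_at). Without TCDD replicate 2 the sign turned for Foxo3, Sox10 and Sox11 (93669_f_at), and without DMSO replicate 2 for Sox10 and Sox4 (160109_at). Foxf2 fell under the filter without DMSO replicate 2, and in the fit with no filter its difference there was 0.03. Sox10 (102856_at) fell under it without DMSO replicate 1, where its difference with no filter was 0.24. Muscle genes differed by replicate number as well, with a summed signal of 1195.1 on replicate 1 and 415.6 on replicate 2 in TCDD germs and of 868.4 and 356.7 in DMSO germs. Whether the muscle content of the pools has a part in the Sox and forkhead differences by replicate number was not tested.

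**Figure D3:**
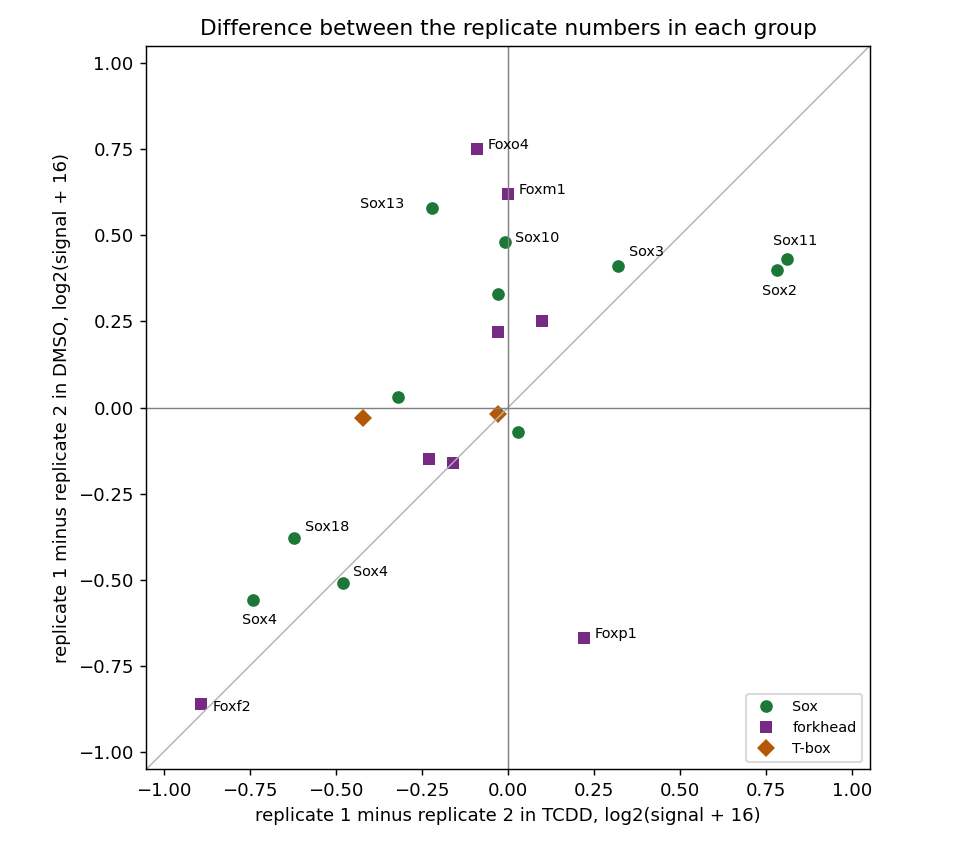
Replicate 1 minus replicate 2 in TCDD germs (x axis) against the same in DMSO germs (y axis), in log2(signal + 16), for the 21 member probe sets with a mean of at least 50; the diagonal marks equal differences. Both Sox4 probe sets, Sox18 at 104408_s_at and Foxf2 lie low on both axes, while Sox2 and Sox11 at 93669_f_at lie high on both.

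The other 41 member probe sets had a mean signal under 50, and 37 of the 62 stayed under 50 on every array. Which of them stood above background is not known here, and 128 of the members' 248 values were rebuilt from day serials. These 41 were read from a limma fit over all 12422 probe sets with no filter. None of the 62 members passed it, where 0.0161% of all did, and the smallest limma adjusted p of a member was 0.979. At an unadjusted p under 0.05 there were 3, Foxq1, Foxa1 and Foxn3 (104664_at), all among the 41 under the filter. Beside them stand 4.85% of all 6639 probe sets under the filter and 3.64% of all 12422. Foxn3 at 104664_at lay on the line, with an unadjusted limma p of 0.05 after rounding.

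Dim probe sets as a class leaned downwards in TCDD germs. Of all 6639 under the filter, 71.1% were lower, with a median log2 difference of -0.10. Of the 41 members 28 were lower, with a median of -0.11. The median signal of all dim probe sets was 10.4 and 9.8 on the TCDD arrays and 14.9 and 10.5 on the DMSO arrays, so DMSO replicate 1 stood apart. Without DMSO replicate 1 the median difference was 0.01 for the members and -0.01 for all. With quantile normalization of the arrays it was 0.01 for the members, with 19 of 41 lower. The groups did not overlap in 16 of the 41 members, 5 with TCDD above and 11 below, where 33.1% of all dim probe sets had no overlap (6.88% with TCDD above and 26.2% below).

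Foxq1, a forkhead gene of hair and epithelia whose zebrafish relative rises in the jaw after TCDD, went against that lean. Its only probe set, 92658_at, had signals of 20.3 and 17.3 in TCDD germs, against 4.8 and 3.9 in DMSO germs. Both TCDD arrays were above both DMSO arrays, and the arrays of each group lay close together. The log2 difference was 0.77 ± 0.18 (SE), with an interval between 0.35 and 1.19, an unadjusted p of 0.00305 and a limma adjusted p of 0.979. It was 1.89 with an offset of 1 in place of 16 and 0.89 with quantile normalization, and lay between 0.71 and 0.84 with each array left out. Over these and the replicate block the limma adjusted p of Foxq1 lay between 0.118 and 1.0. All 4 Foxq1 signals were rebuilt from day serials, and all were under 25.

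The largest differences downwards among the dim members were those of Foxn3, Foxf1 and Foxa1. Foxn3, a repressor linked to cell cycle checkpoints, had signals of 10.6 and 3.8 in TCDD germs, against 21.3 and 13.8 in DMSO germs at 104664_at. The log2 difference was -0.54 ± 0.23 (SE), and its other probe set differed by -0.25. Foxa1, a pioneer factor of endodermal epithelia, had 4.8 and 1.2 in TCDD germs and 13.3 and 7.1 in DMSO germs, a difference of -0.46 ± 0.18 (SE). Without DMSO replicate 1, the array with the high dim signals, the differences were -0.38 for Foxn3 at 104664_at and -0.29 for Foxa1. The other Foxn3 probe set turned to 0.08 without that array. Sox1, a SoxB gene of neural tissue, had 6.3 and 23.7 in TCDD germs and 29.3 and 18.9 in DMSO germs, with overlap and a difference of -0.42 ± 0.33 (SE). Without TCDD replicate 1, its low array, the Sox1 difference was -0.00.

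**Figure D4:**
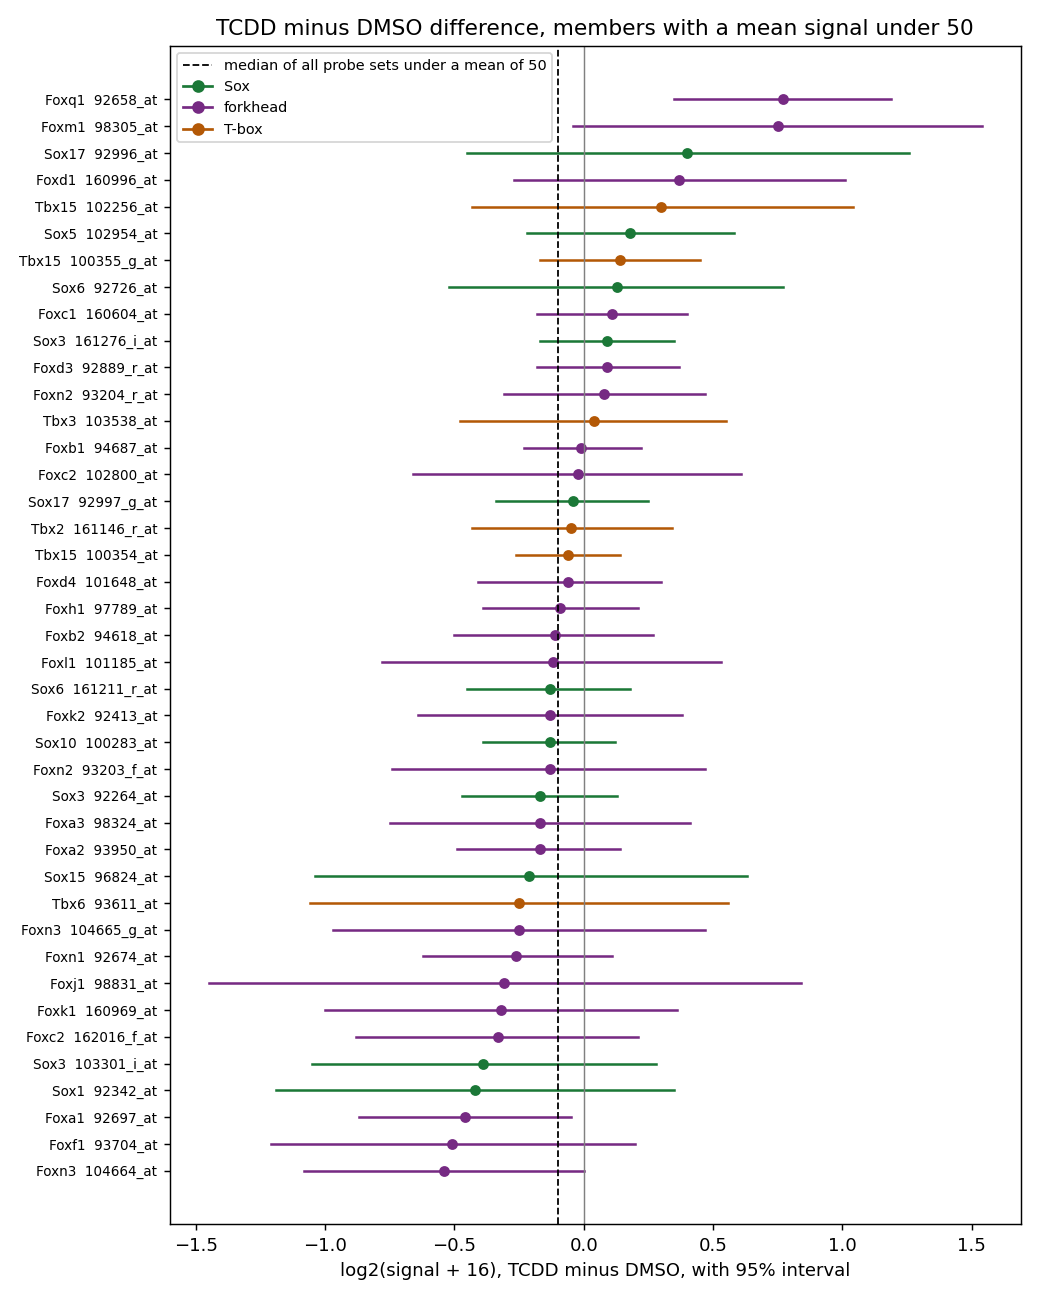
TCDD minus DMSO difference in log2(signal + 16) for the 41 member probe sets with a mean signal under 50, ordered by size, from the limma fit with no filter; lines are 95% intervals and the dashed line is the median of all 6639 dim probe sets, -0.10. Foxq1 at 0.77 has the highest estimate and an interval above 0. The interval of Foxa1 at -0.46 ends below 0, and that of Foxn3 (104664_at) at -0.54 ends at -0.00 after rounding.

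The remaining dim members kept to smaller differences or to scattered arrays. Foxd1, a factor of arch mesenchyme, had signals of 30.2 and 36.8 in TCDD germs, against 26.4 and 18.6 in DMSO germs, without overlap and with a log2 difference of 0.37 ± 0.27 (SE). Sox17, a SoxF gene, had 38.1 and 59.3 in TCDD germs and 19.6 and 49.3 in DMSO germs at 92996_at, where replicate 2 was high in each group. Foxj1, the master gene of motile cilia, had 7.1 and 50.7 in TCDD germs and 43.0 and 24.1 in DMSO germs, the widest interval of any member, between -1.45 and 0.84. The Foxj1 difference of -0.31 turned to 0.46 without TCDD replicate 1. Foxc1 and Foxc2, factors of head mesenchyme and vessels, did not move past the test: Foxc1 differed by 0.11, and Foxc2 by -0.02 and -0.33 at its probe sets. Foxl1, a gut mesenchyme factor, differed by -0.12 and Foxk1, a relative of Foxk2, by -0.32.

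The neural crest factor Foxd3 differed by 0.09, the thymus and skin factor Foxn1 by -0.26 and the Nodal pathway factor Foxh1 by -0.09. Foxa2 and Foxa3, the relatives of Foxa1 in gut and liver, differed by -0.17 each, and Foxb1, Foxb2 and Foxd4 by -0.01, -0.11 and -0.06. Sox5 differed by 0.18 and Sox15, the SoxG gene, by -0.21. Of the T-box genes, Tbx3, a repressor like Tbx2, differed by 0.04 ± 0.22, with 16.5 and 16.2 in TCDD germs and 13.9 and 17.2 in DMSO germs. Tbx6, a gene of presomitic mesoderm, differed by -0.25 ± 0.35 (SE). Tbx15, a gene of skeletal and skin mesenchyme, differed by 0.30, 0.14 and -0.06 at its 3 probe sets, and the first of these turned to -0.23 without TCDD replicate 1. None of these passed the limma test.

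Where a gene had several probe sets, they often pointed different ways. Of 15 such genes, all probe sets had the same direction in 5 (Foxc2, Foxk2, Foxn3, Foxp1 and Sox18) and not in the other 10. A letter before _at in a probe set's name (f, g, i, r or s) marks probes that may match related sequences or that were chosen under relaxed rules, and 17 of the 62 members carry one. Sox6 had 30.7 and 33.4 in TCDD germs and 33.4 and 23.1 in DMSO germs at 92726_at, a difference of 0.13, and -0.13 at its other probe set. The 2 probe sets of Foxn2 differed by -0.13 and 0.08.

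The promoter windows of the members were searched for the receptor's core letters. Windows run from 250 bases before to 50 bases after a gene's start, in RefSeq's GRCm38.p6 table, and 24 of the 43 genes matched, with 33 windows. The core GCGTG, on either strand, was in a window of 12 of the 24 genes, beside 35.2% of all 27025 genes in the table. The longer form TNGCGTG, which contains the core, was in 3 of the 24, beside 5.84% of all. A match is a description of the letters and does not show a binding site. Shown are the windows of Cyp1a1, which rose, and of Foxk2 and Sox4, which hold the core and did not pass the test. The core or its reverse complement CACGC is in capitals.
Cyp1a1, chr9:57697363-57697662, + strand: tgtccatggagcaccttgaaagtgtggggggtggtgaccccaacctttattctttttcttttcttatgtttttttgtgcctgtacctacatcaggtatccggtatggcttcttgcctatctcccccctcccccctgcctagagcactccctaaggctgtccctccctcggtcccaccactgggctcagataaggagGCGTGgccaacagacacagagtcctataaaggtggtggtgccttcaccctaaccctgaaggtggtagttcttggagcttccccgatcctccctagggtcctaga
Foxk2, chr11:121259737-121260036, + strand: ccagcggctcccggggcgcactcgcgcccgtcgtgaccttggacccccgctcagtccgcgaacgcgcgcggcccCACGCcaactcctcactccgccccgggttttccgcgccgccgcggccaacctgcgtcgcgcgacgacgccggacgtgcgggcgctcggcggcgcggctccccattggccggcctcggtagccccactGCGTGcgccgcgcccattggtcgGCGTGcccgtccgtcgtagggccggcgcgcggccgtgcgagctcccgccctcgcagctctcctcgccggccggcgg
Sox4, chr13:28953650-28953949, - strand: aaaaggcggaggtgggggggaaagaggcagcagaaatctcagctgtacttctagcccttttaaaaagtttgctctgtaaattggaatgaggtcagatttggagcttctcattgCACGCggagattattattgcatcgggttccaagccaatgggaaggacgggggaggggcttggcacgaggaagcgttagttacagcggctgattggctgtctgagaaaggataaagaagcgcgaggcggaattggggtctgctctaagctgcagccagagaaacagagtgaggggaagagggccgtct

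Cyp1a1 and Sox4 each hold 1 core in this window and Foxk2 holds 3, of which 1 is part of the longer form. Foxk2 at 95596_at differed by -0.12, with an interval between -0.58 and 0.35, and Sox4 by -0.04 and 0.24 at its probe sets.

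Other tissue genes give the setting of these values. Of the 8 dental epithelium and enamel knot genes past the filter 4 were higher and 4 lower, with a median of 0.09. Of the 12 mesenchyme genes 7 were higher and 5 lower, with a median of 0.05. None passed in limma. The summed signal of the 10 epithelial genes on the array was 3004.8 and 3453.9 in TCDD germs and 2277.8 and 3093.8 in DMSO germs. Perp, an epithelial list gene, had 756.8 and 738.0 in TCDD germs against 393.2 and 592.1 in DMSO germs. Cdh1, which encodes E-cadherin, had 101.2 and 120.5 in TCDD germs against 170.3 and 141.1 in DMSO germs. Fgf4 differed by -0.47 ± 0.22 (SE). Bmp4, a mesenchymal growth factor gene read at 93456_r_at, had 296.1 and 207.0 in TCDD germs against 204.4 and 161.3 in DMSO germs. Of the same mesenchyme list, Barx1 differed by -0.33 ± 0.22 and Dlx2 by 0.21 ± 0.19 (SE). Neural genes linked to SoxB and SoxC factors were measured in 2 of 9 cases, Nes and Tubb3, at -0.10 ± 0.23 and -0.07 ± 0.19 (SE). Macrophage genes were higher in 7 of 7 measured, with a median of 0.35 and 0 passing in limma. Their summed signal was 868.7 and 857.1 in TCDD germs and 666.8 and 629.2 in DMSO germs, and its part in the members' values was not tested.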

How the data were processed

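RNA from 4 pools of cultured molar tooth germs was hybridised to murine U74v2A arrays. The deposited values are hybridisation intensity signals, which the authors made with Microarray Suite 5.0 (MAS5) and scaled to a target of 100, per the labels and the submitters' processing notes. Of the 49952 deposited intensity cells, 18515 (37.1%) held the serial number of a calendar day (38718 to 38990), and each was turned back into day.month. The 2% trimmed mean was then 100.05 on every array. No probe-level files were used here. With 4 arrays, precision is limited by their number.

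Gene symbols came from GEO's platform annotation and were checked through Entrez IDs against GRCm38.p6: 10839 of 10855 single symbols matched and 0 changed. TCDD was set against DMSO with limma 3.58.1 in R 4.3.3 (lmFit, eBayes with trend) on log2(signal + 16), with control probe sets left out, a mean signal of at least 50 and Benjamini-Hochberg adjustment over all 5783 probe sets. Members under 50 were read from the same fit with no filter (12422 probe sets). The procedure was run on simulated data with noise independent between arrays and log2 changes larger than any member's difference at an offset of 16. That run does not show how small a difference could be found here. The members, gene lists and tests were chosen with earlier results of these data known. Named were all members, and up to 3 genes of smallest p per list. List genes were read at their probe set of highest mean signal, and their other probe sets are not covered. Apart from what all 4 arrays share, the labels give the 2 replicate 1 arrays a number and an RNA input of 11 µg in common. The 2 replicate 2 arrays share a number, with inputs of 8 µg for TCDD and 7 µg for DMSO. Alternatives were the offset, the filter, quantile normalization, day serials set to 16, a replicate block, no variance trend and each array left out.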

Additional observations from a re-analysis of the deposited data

How the results depend on the processing

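No member passed limma's adjusted p under any setting tried, with or without the filter (0 in each). At an unadjusted p under 0.05 the members' count was between 0 and 3 under the planned settings, and between 1 and 7 of 62 where no filter was joined with another choice. The count of all probe sets past the adjusted p was 4, against 2 without the filter, 32 with the replicate block and 2 to 5 with 1 array left out. The block's numbers come from the labels alone: replicate 1 minus replicate 2 correlated at 0.381 between the groups over 5783 probe sets, with the replicate block the smallest limma adjusted p of a member past the filter was 0.567 (Sox3), and no member's call changed. The median of the members past the filter was -0.09, and between -0.21 and -0.02 with 1 array left out. The median of the dim members was -0.11, against -0.26 with no filter and an offset of 1, 0.01 with no filter and quantile normalization, and between -0.21 and 0.01 with 1 array left out. The settings that join no filter with another choice were chosen after seeing the data.

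Of 317 single-probe-set comparisons with an alternative, 298 kept their direction, 19 turned it and 0 changed a call. A change of filter, variance trend or replicate block leaves the estimate as it is, so those comparisons could not turn. Array leave-outs with no filter enter this count only for the dim members of largest difference. Of the other dim members, Sox15 turned from -0.21 to 0.27 without DMSO replicate 1 and Tbx6 from -0.25 to 0.13 without TCDD replicate 2. Others did not turn, such as Foxd1, between 0.22 and 0.51. Foxo3 turned to -0.01 with quantile normalization and Sox10 (102856_at) to -0.00 with an offset of 64. With 1 array left out, differences that crossed 0 ranged between -0.84 and 0.05 for Foxf2, -0.24 and 0.01 for Foxk2 (95596_at), -0.10 and 0.13 for Foxo3, -0.47 and 0.28 for Foxo4, -0.22 and 0.45 for Foxp1 (104415_at), -0.24 and 0.01 for Sox10 (102856_at), -0.47 and 0.34 for Sox11 (93669_f_at), -0.51 and 0.08 for Sox13, -0.53 and 0.09 for Sox18 (104408_s_at), -0.16 and 0.62 for Sox2, -0.40 and 0.33 for Sox4 (160109_at), -0.01 and 0.50 for Sox4 (101430_at), and -0.32 and 0.10 for Tbx2 (92705_at). These ranges cover members past the filter. Sox10 (102856_at) fell under the filter without DMSO replicate 1, and in the fit with no filter its difference there was 0.24. The cause of these turns was not tested. With 1 array left out, the lone array is assumed to vary like the others.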
